A study of Mus musculus with 16 samples.

Results

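Ctse, Anxa8, Sdc3, Cd177, Slc7a2, Rgs16 and Sprr1a are 7 of the 27179 genes counted in sorted mouse lung alveolar type 2 (AT2) cells, the epithelial cells that make surfactant. They were chosen by symbol from their measured counts, for a strong gain in the columns named OG together with a difference between CD44+ and CD44- cells, and were grouped under the working name of aberrant genes highest in mutant CD44+ cells. The 4 groups measured are OG CD44+, OG CD44-, R26 CD44+ and R26 CD44-, with 4 libraries each. The same 4 OG animals gave both OG sorts and the same 4 R26 animals gave both R26 sorts. The data go against that name for 3 of the 7 genes: Sprr1a was highest in OG CD44- cells, and the Slc7a2 and Rgs16 levels of R26 and OG CD44+ libraries overlapped.

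The labels describe lungs of control mice (genotype SP-C WT, n = 4) and of Sftpc mutant mice (genotype SP-C Mutant, n = 4), and ask how CD44+ and CD44- AT2 cells differ in fibrosis. All 16 samples carry the same treatment text, OG TMX. AT2 cells were taken as CD45-, CD31-, Epcam+, CD104- and CD200hi living cells and were then split by CD44, the receptor for hyaluronan. The columns are named by the prefixes OG (animals 3, 5, 6 and 7) and R26 (animals 1, 2, 7 and 8), and the labels tie neither prefix to a genotype. OG is read here as mutant and R26 as control from the usual meaning of such names, which may not hold; differences between the sorts of one prefix stand either way. The labels do not describe the mutation, the recombinase, or the age of the mice, and do not say whether animals were pooled.

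The 7 proteins belong to different pathways. Ctse encodes cathepsin E, an aspartic protease of endosomes known from stomach epithelium and immune cells. Anxa8 encodes annexin A8, a calcium-dependent binder of membrane phospholipids. Cd177 and Sdc3 encode surface proteins: CD177 is a lipid-anchored glycoprotein best known from neutrophils, and syndecan-3 is a membrane-spanning proteoglycan whose heparan sulfate chains bind growth factors. Slc7a2 encodes the cationic amino acid transporter CAT-2, which brings arginine, lysine and ornithine into the cell. Rgs16 encodes a regulator of G protein signalling that speeds the switching-off of the G alpha subunits behind many chemokine receptors. Sprr1a encodes a small proline-rich protein, a cross-linked building block of the cornified envelope of squamous epithelium. Healthy AT2 cells are known for surfactant and lamellar bodies, not for a cornified envelope.

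Before the values, 3 of the OG animals need a remark. Libraries of one group were compared pair by pair by a chi-square statistic per degree of freedom over genes with at least 50 and under 500 counts in the pair, where 1 is pure counting noise. The CD44+ libraries of OG animals 5, 6 and 7 gave 1.38 to 1.64 among themselves, against 3.81 to 4.05 for their pairs with OG animal 3 and 3.74 to 5.3 among the R26 CD44+ libraries. Over immunoglobulin variable genes with at least 20 counts in the pair, whose levels depend on the few lymphoid clones in a sample, the same 3 CD44+ libraries gave 1.21 to 1.39, against 43.35 to 47.12 with animal 3. In CD44- cells the values were 1.4 to 1.42 within the 3 animals, 1.43 to 1.57 with animal 3, and 1.43 to 2.26 among R26 CD44- libraries. Whether animals 5, 6 and 7 share cells was not tested. Every OG mean ± SD therefore counts these 3 libraries as 1 sample, so that OG groups have n = 2 and R26 groups n = 4, and all 4 library values are printed. The fitted log2 fold changes use all 16 libraries; for the 7 genes their SE in comparisons with OG libraries was 0.11 to 0.43, and 0.14 to 0.5 with the 3 animals summed to 1 library per sort. Animal numbers come from the column names, and p-values measure the spread between these libraries. Unless stated otherwise, p-values count OG animals 5, 6 and 7 as separate libraries and do not rest on the n = 2 of the printed SD. Between the OG sorts 50.4% of genes tested were called, and 31.8% with the 3 animals summed.

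Total counts ran from 9022471 to 21363816 per library, with 15516 genes tested and all 7 described here among them. Levels are CPM, the counts of a gene scaled to the library total after TMM normalization. Sftpc, the surfactant gene named in the genotype labels, averaged 6360 ± 951 CPM in OG CD44+ cells and 54400 ± 12300 CPM in R26 CD44+ cells, and 11500 ± 549 CPM in OG CD44- cells and 79600 ± 7870 CPM in R26 CD44- cells, so AT2 transcripts were abundant in every group. The labels do not describe the mutation, so this level checks no genotype. Cd44 averaged 911 ± 8.63 CPM in OG CD44+ cells against 572 ± 29.5 CPM in OG CD44- cells, and 469 ± 77.4 CPM in R26 CD44+ cells against 329 ± 4.45 CPM in R26 CD44- cells. Itgb4, which encodes the CD104 that the sort excluded, averaged 92.1 ± 7.49, 24.8 ± 0.442, 13.8 ± 4.1 and 6.78 ± 0.378 CPM in OG CD44+, OG CD44-, R26 CD44+ and R26 CD44- cells. In bulk RNA, fewer cells with a transcript and less of it per cell cannot be told apart, and this holds for every level below.

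Promoter sequences, 250 bases before to 50 bases after the RefSeq start in GRCm38.p6, were found for 5 of the 7 genes (Anxa8, Sdc3, Cd177, Rgs16 and Sprr1a; not for Ctse and Slc7a2). Sequences of 3 of them are printed, for 3 of the patterns in the OG animals. Left out are Anxa8, whose pattern was near that of Sdc3, and Rgs16, which was low in OG CD44- cells only. Of the 3 printed, Sprr1a was higher in CD44- cells, and Cd177 was higher in CD44+ cells and nearly limited to OG libraries. Sdc3 was higher in CD44+ cells with a clear level in R26 libraries too. All are written 5′ to 3′ on the gene's own strand, with matches to the AP-1 pattern TGANTCA or the TATA pattern TATAAA in capitals.
Sprr1a: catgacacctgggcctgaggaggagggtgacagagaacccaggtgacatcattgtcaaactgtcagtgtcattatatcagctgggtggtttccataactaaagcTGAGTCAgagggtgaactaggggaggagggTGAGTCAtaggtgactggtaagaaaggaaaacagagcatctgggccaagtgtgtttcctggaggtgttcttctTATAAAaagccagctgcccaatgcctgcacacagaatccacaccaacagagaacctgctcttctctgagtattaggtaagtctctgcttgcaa
Cd177: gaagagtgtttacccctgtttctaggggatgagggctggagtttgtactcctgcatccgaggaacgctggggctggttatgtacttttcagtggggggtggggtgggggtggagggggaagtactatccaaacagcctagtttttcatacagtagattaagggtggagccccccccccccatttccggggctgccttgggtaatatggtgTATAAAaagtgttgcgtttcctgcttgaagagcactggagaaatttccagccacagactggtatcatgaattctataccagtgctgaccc
Sdc3: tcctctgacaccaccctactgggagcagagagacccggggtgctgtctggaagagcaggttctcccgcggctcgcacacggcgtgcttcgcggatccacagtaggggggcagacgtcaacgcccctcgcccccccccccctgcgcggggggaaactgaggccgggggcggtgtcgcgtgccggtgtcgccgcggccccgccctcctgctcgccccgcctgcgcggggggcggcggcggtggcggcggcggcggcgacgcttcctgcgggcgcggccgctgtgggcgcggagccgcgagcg
These are chr3:92485832-92486131 on the minus strand, chr7:24760262-24760561 on the minus strand and chr4:130792287-130792586 on the plus strand. Both patterns, the TEAD pattern GGAATG and the CRE pattern TGACGTCA were searched on both strands, and no matches of different patterns overlapped in these windows. Sprr1a held 2 AP-1 matches, 146 and 116 bases before the start, and TATAAA 43 bases before it. An AP-1 match stands in 7.81% of the 32851 promoters of the table, and 0.46% hold 2 or more. Cd177 held TATAAA 40 bases before the start, which 13.6% of all promoters contain somewhere. Sdc3 held none of the 4 patterns, and neither did Anxa8 or Rgs16; GGAATG stands in 14.7% of all promoters and TGACGTCA in 1.79%. The Sdc3 window was rich in G and C (77.7%, with a CpG observed over expected ratio of 0.97), as was that of Rgs16 (66.0% and 0.72). Sprr1a (48.7% and 0) and Cd177 (51.7% and 0.21) were near the table's medians of 52.7% for GC and below its median of 0.38 for CpG. A match is a match of letters and shows no binding.

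Across the 16 libraries, Ctse, Anxa8, Sdc3 and Cd177 were higher in every OG CD44+ library than in all other 12 libraries, a pattern that 10.1% of the 15516 genes tested had. Every OG CD44- library held more Sprr1a than each of the other 12 libraries, as for 10.9% of genes. For Slc7a2 and Rgs16 every OG CD44- library was below all other 12, as for 3.1% of genes. These patterns were part of the choice of the genes and are given as a description. Corrected for exon length, Sprr1a had the highest level of the 7 in both OG groups, at 84.1 CPM per kilobase in OG CD44+ cells and 255 CPM per kilobase in OG CD44- cells. In both R26 groups Rgs16 had the highest level, at 9.44 CPM per kilobase in CD44+ cells and 8.48 CPM per kilobase in CD44- cells, and Ctse the lowest, at 0.104 and 0.0182 CPM per kilobase.

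**Figure D1:**
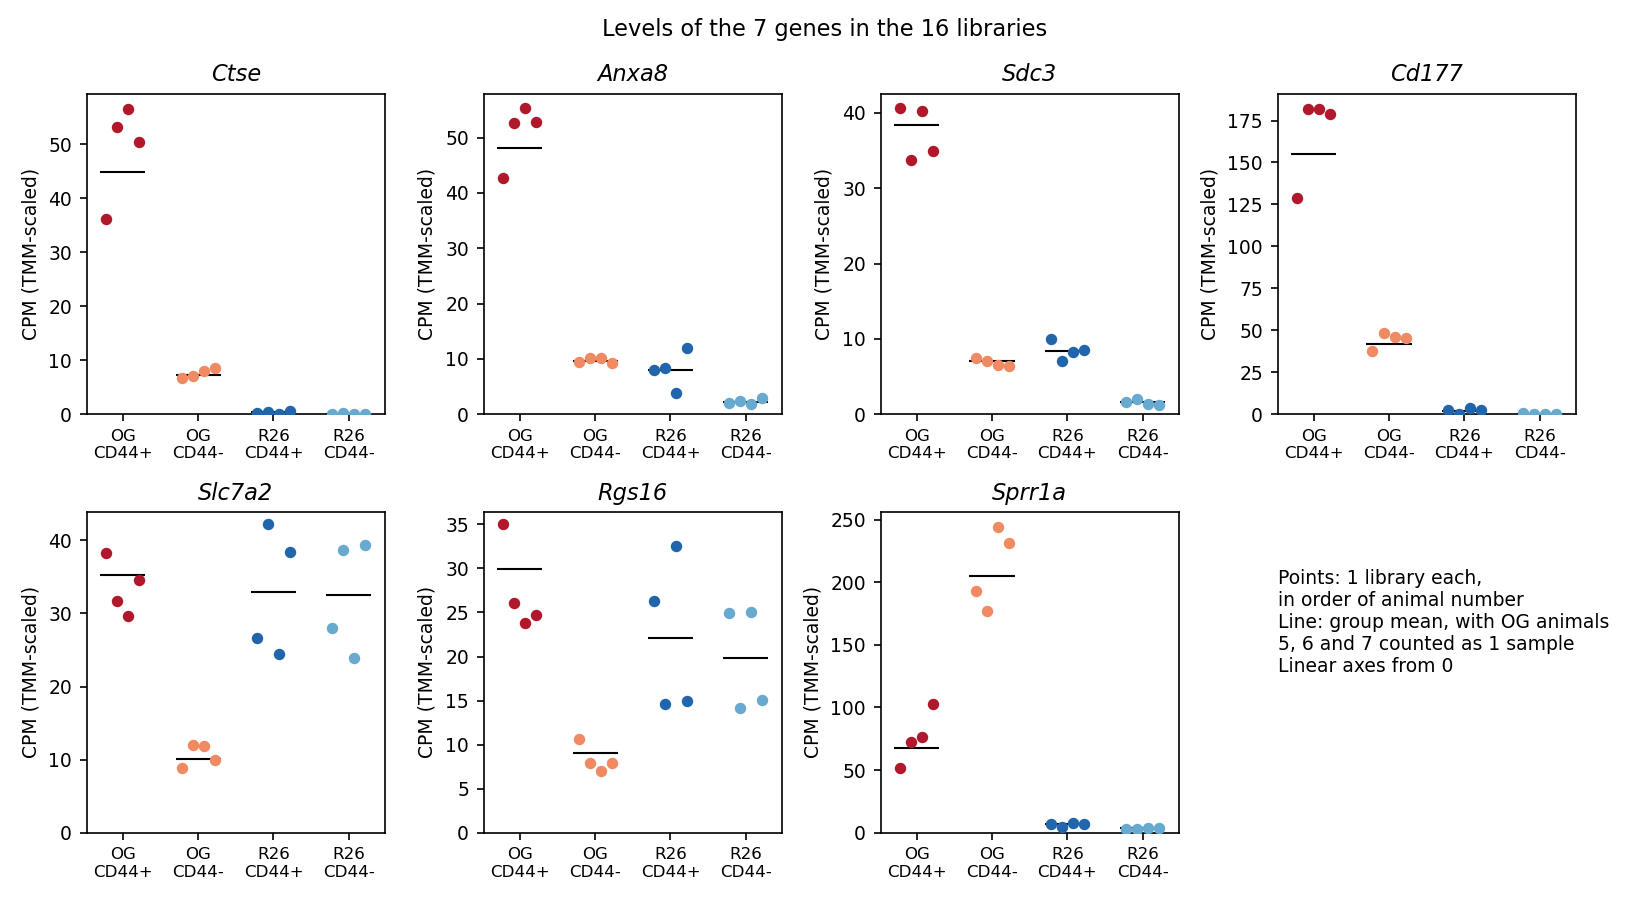
Level in CPM (vertical axes, linear from 0, with a scale for each gene) of the 7 genes in the 16 libraries, grouped as OG CD44+, OG CD44-, R26 CD44+ and R26 CD44-; each point is 1 library and each line the group mean, with OG animals 5, 6 and 7 counted as 1 sample. Ctse, Anxa8, Sdc3 and Cd177 stand highest in OG CD44+ cells, Slc7a2 and Rgs16 are low in OG CD44- cells only, and Sprr1a is highest in OG CD44- cells.

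Ctse, the endosomal protease, was close to the counting limit in R26 animals and clearly present in OG animals (gene 13034, chromosome 1, 131638314 to 131675507, plus strand, GRCm38). In OG CD44+ libraries of animals 3, 5, 6 and 7 it was at 36.2, 53.3, 56.6 and 50.4 CPM. In OG CD44- libraries of the same animals it was at 6.63, 7.1, 8.07 and 8.52 CPM. R26 CD44+ libraries of animals 1, 2, 7 and 8 held 0.281, 0.475, 0 and 0.565 CPM, and R26 CD44- libraries 0, 0.167, 0 and 0.0646 CPM. No OG library overlapped an R26 library, and no OG CD44+ library overlapped an OG CD44- one, while the R26 sorts overlapped. Means were 44.8 ± 12.2 CPM in OG CD44+ and 7.26 ± 0.891 CPM in OG CD44- cells, against 0.33 ± 0.25 CPM in R26 CD44+ and 0.0578 ± 0.0787 CPM in R26 CD44- cells.

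The Ctse counts in R26 cells were 13 over the 4 CD44+ libraries and 3 over the 4 CD44- libraries, and 3 counts correspond to 0.134 to 0.356 CPM depending on the library. The ratio of summed levels in OG CD44+ over R26 CD44+ cells, 2535 counts against 13, was 155 (exact 95% interval 90.4 to 291). In OG CD44- over R26 CD44- cells, 511 counts against 3, it was 140 (47.7 to 682). These intervals cover counting error only. Inside the OG animals the CD44+ over CD44- difference was 2.69 ± 0.16 on the log2 scale, and within single OG animals it ran from 2.45 to 2.91. In R26 animals Ctse was higher in the CD44+ library of 3 of 4 animals and at 0 in both libraries of animal 7; the log2 difference of 2.36 ± 0.94 did not pass edgeR's quasi-likelihood test (adjusted p = 0.0542), and the ratio of 13 to 3 counts was 5.85 (exact 95% interval 1.61 to 32.0). With the animal as a block that difference was 2.4 and passed (edgeR adjusted p = 0.00664), so the call depends on the model.

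Other proteases moved in both directions. The list held 21 further cathepsins, aspartic proteases and cystatins, of which 18 were tested. In OG CD44+ against OG CD44- cells 10 rose and 5 fell, against 22.3% of all genes that rose and 28% that fell (7 and 3 of the list with animals 5, 6 and 7 summed, where 14.6% of all genes rose and 17.2% fell). Over all genes that was 3464 rising and 4351 falling, which turned to 3903 and 3451 with TMM against OG animal 7 CD44- and to 4283 and 3918 with only the 8 OG libraries. The list's median log2 change was 0.29, beside -0.06 over all genes. In R26 CD44+ against R26 CD44- cells 4 rose and 3 fell (all genes: 21.6% and 15.4%), with a median of 0.08 beside -0.02. In OG CD44+ against R26 CD44+ cells 11 rose and 3 fell (all genes: 34.5% and 34.6%), with a median of 0.65 beside -0.01. In OG CD44- against R26 CD44- cells 12 rose and 4 fell (all genes: 39.4% and 29.6%), with a median of 0.54 beside 0.12. Ctsh, a lysosomal protease that also trims surfactant protein precursors, rose to 2340 ± 256 CPM in OG CD44+ cells, against 606 ± 34.9 CPM in R26 CD44+ cells (log2 2.0 ± 0.06, edgeR adjusted p = 1.86e-18). Napsa, the aspartic protease of lamellar bodies, fell to 773 ± 86.8 CPM in OG CD44+ cells, against 1180 ± 290 CPM in R26 CD44+ cells (log2 -0.55 ± 0.13, edgeR adjusted p = 0.00145). Ctsb, a lysosomal cysteine protease, was at 624 ± 3.77 CPM in OG CD44+ cells and 420 ± 25.6 CPM in R26 CD44+ cells (log2 0.57 ± 0.05, edgeR adjusted p = 8.22e-10). Ctsc, which activates serine proteases of leukocytes, was at 803 ± 59.0 CPM in OG CD44+ cells and 1070 ± 2.46 CPM in OG CD44- cells (log2 -0.38 ± 0.05, edgeR adjusted p = 2.75e-06). All 4 were abundant in R26 cells, where Ctse was nearly absent.

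Taken as a sum, markers of goblet and gastric cells were higher in OG CD44+ libraries, as Ctse was, but not in OG CD44- libraries. Their summed level was 26.3 to 39.4 CPM in OG CD44+ libraries and 4.76 to 5.29 CPM in OG CD44- libraries, against 5.18 to 8.2 CPM in R26 CD44+ and 4.93 to 5.91 CPM in R26 CD44- libraries. Of the 8 markers 6 had counts in OG CD44+ cells, and Tff3 and Gkn1 were at 0 in both OG groups. Gkn2, a gastrokine, led the list with 1261 counts over the OG CD44+ libraries and 199 over the OG CD44- libraries, against 6 in R26 CD44+ and 8 in R26 CD44- libraries. Muc5ac, the secreted mucin, had 245, 35, 43 and 17 counts in the same groups. Spdef, a transcription factor of goblet cells, ran the other way between prefixes, with 35 and 46 counts in the OG groups and 153 and 259 in the R26 groups, and Tff2 had 55, 12, 67 and 10 counts. The part of such cells in the Ctse levels was not tested.

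Cd177 had the largest CPM range after Sprr1a and was nearly limited to OG animals (gene 68891, chromosome 7, 24743983 to 24760334, minus strand). OG CD44+ libraries of animals 3, 5, 6 and 7 held 129, 182, 182 and 179 CPM. OG CD44- libraries held 37.6, 48.3, 46.1 and 45.2 CPM. In R26 CD44+ libraries of animals 1, 2, 7 and 8 it was at 2.53, 0.238, 3.5 and 2.54 CPM, and in R26 CD44- libraries at 0.966, 0.416, 0.197 and 0.194 CPM. OG and R26 libraries did not overlap in either sort, and the R26 sorts overlapped because of animal 2. Means were 155 ± 37.0 CPM in OG CD44+ and 42.0 ± 6.34 CPM in OG CD44- cells, against 2.2 ± 1.39 CPM in R26 CD44+ and 0.443 ± 0.363 CPM in R26 CD44- cells. The log2 difference was 6.18 ± 0.27 for OG CD44+ against R26 CD44+ cells and 6.69 ± 0.36 for OG CD44- against R26 CD44- cells. In OG animals CD44+ cells stood above CD44- cells by 1.93 ± 0.17, with 1.78 to 1.98 in single animals.

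In R26 animals, whose CD44 difference the rule of choice does not name, Cd177 rose in CD44+ cells by a log2 change of 2.44 ± 0.67 (edgeR adjusted p = 0.0109). It was higher in 3 of 4 animals, on 95 counts in CD44+ and 23 in CD44- libraries. Single-animal differences ran from -0.81 to 4.15, and the low one is animal 2, whose CD44+ library held 0.238 CPM. A small share of Cd177 exon sequence, 5.51% of its stretches of 50 bases, also occurs in other genes (Gm4763 and BC049730), and the authors' counting could split those reads.

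Among other members of the surface protein family of Cd177 and its partners, more rose than fell in each comparison. Of 23 listed genes 15 were tested; 9 rose and 1 fell in OG CD44+ against OG CD44- cells (all genes: 22.3% and 28%; 5 and 1 with animals 5, 6 and 7 summed, where 14.6% of all genes rose and 17.2% fell), with a median log2 change of 0.6 beside -0.06 over all genes. In R26 CD44+ against R26 CD44- cells 9 rose and 2 fell (all genes: 21.6% and 15.4%), with a median of 1.2 beside -0.02. Between prefixes 10 rose and 2 fell in CD44+ cells (all genes: 34.5% and 34.6%), with a median of 0.71 beside -0.01. In CD44- cells 10 rose and 0 fell (all genes: 39.4% and 29.6%), with a median of 1.41 beside 0.12. Ly6c1, a lipid-anchored protein of the family, rose to 183 ± 14.2 CPM in OG CD44+ cells, against 38.7 ± 3.08 CPM in R26 CD44+ cells (log2 2.28 ± 0.07, edgeR adjusted p = 2.69e-19). Ly6a, also called Sca-1, rose to 56.9 ± 5.2 CPM in OG CD44+ cells, against 22.1 ± 5.17 CPM in R26 CD44+ cells (log2 1.4 ± 0.19, edgeR adjusted p = 1.43e-05). Ly6e rose by 0.5 ± 0.09 (edgeR adjusted p = 1.24e-04), while Lynx1, at 40.6 ± 2.66 CPM in OG CD44+ cells and 37.8 ± 3.85 CPM in R26 CD44+ cells, did not pass (log2 0.14 ± 0.07, edgeR adjusted p = 0.0873). The list includes the integrin chains Itgam and Itgb2 and the adhesion protein Pecam1, which leukocytes or endothelium make.

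Neutrophil markers were low in all groups, though highest where Cd177 was highest. Their sum was 20.1 to 26.7 CPM in OG CD44+ and 4.34 to 4.7 CPM in OG CD44- libraries, against 3.96 to 11.2 CPM in R26 CD44+ and 1.91 to 3.41 CPM in R26 CD44- libraries. Of the 13 markers 12 had counts in OG CD44+ cells, and Ltf alone, which secretory epithelium also makes, gave 817 counts there. It had 180, 236 and 110 counts in OG CD44-, R26 CD44+ and R26 CD44- libraries. Ltf led the list in every group, so the sums follow mostly this gene. Over the 4 OG CD44+ libraries Elane was at 0 and Mpo and Ly6g at 2 counts each, while Cxcr2 had 102 counts, Mmp8 76, Ngp 63, Retnlg 55, S100a8 44, S100a9 36, Mmp9 32 and Csf3r 19. In OG CD44- libraries Cxcr2 had 12, Mmp8 56, Ngp 2, Retnlg 17 and Csf3r 3 counts. In R26 CD44+ libraries S100a9, Ly6g, Csf3r and Mpo were at 0. OG animal 3 had the lowest neutrophil sum, 20.1 CPM, and the lowest Cd177 of the OG CD44+ libraries, while R26 animal 2 had the highest sum of the R26 CD44+ libraries, 11.2 CPM, and the lowest Cd177. The part of neutrophils in the Cd177 levels was not tested.

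Anxa8, the annexin, was present in all 4 groups (gene 11752, chromosome 14, 34085979 to 34100571, plus strand; the gene A630023A22Rik overlaps it on the other strand). OG CD44+ libraries of animals 3, 5, 6 and 7 held 42.7, 52.7, 55.3 and 52.9 CPM, and OG CD44- libraries 9.4, 10.2, 10.2 and 9.3 CPM. R26 CD44+ libraries of animals 1, 2, 7 and 8 held 8.05, 8.43, 3.77 and 11.9 CPM, and R26 CD44- libraries 2.01, 2.33, 1.78 and 2.97 CPM. OG CD44+ libraries stood above all others, R26 CD44- libraries below all others, and the 2 groups between them, OG CD44- and R26 CD44+, overlapped. Means were 48.2 ± 7.71 CPM in OG CD44+ and 9.64 ± 0.342 CPM in OG CD44- cells, against 8.03 ± 3.32 CPM in R26 CD44+ and 2.27 ± 0.518 CPM in R26 CD44- cells. In R26 animals Anxa8 rose in CD44+ cells by a log2 change of 1.8 ± 0.27 (edgeR adjusted p = 5.91e-05), in 4 of 4 animals, by 1.09 to 2.0. In OG animals the difference was 2.38 ± 0.18, with 2.18 to 2.51 in single animals. The difference between prefixes was 2.67 ± 0.2 in CD44+ cells and 2.09 ± 0.25 in CD44- cells.

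Most other annexins rose in OG animals in both sorts. Of 12 listed genes, the annexins and the annexin partner S100a10, 11 were tested; 9 rose and 1 fell in each comparison between prefixes, with medians of 1.09 in CD44+ cells and 0.81 in CD44- cells. Over all genes 34.5% rose and 34.6% fell in CD44+ cells (median -0.01), and 39.4% rose and 29.6% fell in CD44- cells (median 0.12). Between sorts 4 annexin genes rose and 2 fell in OG animals, with a median of 0.09 beside -0.06 (all genes: 22.3% and 28%), and 3 rose and 3 fell in R26 animals, with a median of 0.07 beside -0.02 (all genes: 21.6% and 15.4%). Anxa1, known for limiting inflammation, rose to 1320 ± 36.8 CPM in OG CD44+ cells, against 239 ± 49.7 CPM in R26 CD44+ cells (log2 2.47 ± 0.12, edgeR adjusted p = 3.00e-11). Anxa2, which binds plasminogen at the cell surface together with S100a10, rose to 863 ± 55.4 CPM in OG CD44+ cells, against 414 ± 4.02 CPM in R26 CD44+ cells (log2 1.09 ± 0.04, edgeR adjusted p = 1.58e-16). Anxa4 rose by 0.44 ± 0.06 (edgeR adjusted p = 2.32e-07). Anxa6 was the 1 that fell, by 0.28 ± 0.05 in CD44+ cells (edgeR adjusted p = 1.30e-05).

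Taken as a sum, ciliated-cell markers moved with Anxa8. All 8 had counts in every group, and their sum was 184 to 240 CPM in OG CD44+ and 62.4 to 71.4 CPM in OG CD44- libraries, against 37.9 to 95 CPM in R26 CD44+ and 25.1 to 43.1 CPM in R26 CD44- libraries. R26 animal 7 had the lowest sum of the R26 CD44+ libraries, 37.9 CPM, and the lowest Anxa8, and OG animal 3 the lowest sum of the OG CD44+ libraries, 184 CPM, and the lowest Anxa8. Foxj1, the transcription factor of motile cilia, had 6619, 2282, 1597 and 735 counts in OG CD44+, OG CD44-, R26 CD44+ and R26 CD44- cells. Dynlrb2 averaged 26.1, 11.6, 11.3 and 13.1 CPM in the same groups. Unlike Anxa8 and the other markers, Dynlrb2 was not lowest in R26 CD44- cells. The part of ciliated cells in the Anxa8 levels was not tested.

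**Figure D2:**
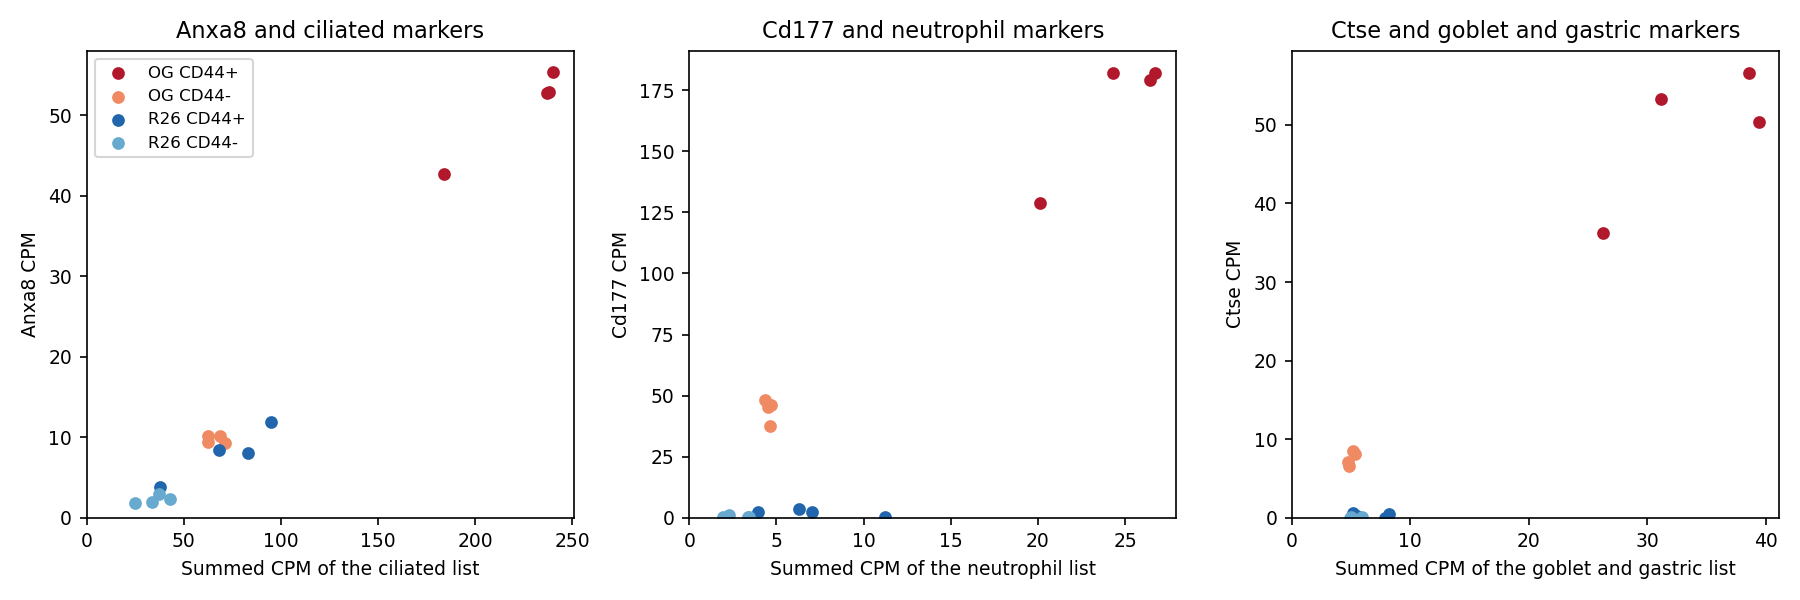
Level of Anxa8, Cd177 and Ctse (vertical axes, CPM) against the summed CPM of ciliated, neutrophil, and goblet and gastric markers (horizontal axes), with 1 point per library and colours for the 4 groups; axes are linear from 0. Anxa8 and the ciliated sum are both highest in OG CD44+ and lowest in R26 CD44- libraries, while OG CD44- libraries hold 37.6 to 48.3 CPM of Cd177 at a neutrophil sum of 4.34 to 4.7 CPM, inside the range of the R26 CD44+ sums. Ltf, which secretory epithelium also makes, has the most counts of the neutrophil markers in every group.

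Sdc3, the syndecan, had a CD44 difference of like size in both prefixes (gene 20970, chromosome 4, 130792537 to 130826318, plus strand). OG CD44+ libraries of animals 3, 5, 6 and 7 held 40.6, 33.7, 40.3 and 34.9 CPM, and OG CD44- libraries 7.44, 7.02, 6.54 and 6.37 CPM. R26 CD44+ libraries of animals 1, 2, 7 and 8 held 9.93, 7.13, 8.26 and 8.48 CPM, and R26 CD44- libraries 1.61, 2.0, 1.38 and 1.29 CPM. As for Anxa8, the outer groups stood apart, and OG CD44- and R26 CD44+ libraries overlapped. Means were 38.4 ± 3.06 CPM in OG CD44+ and 7.04 ± 0.564 CPM in OG CD44- cells, against 8.45 ± 1.15 CPM in R26 CD44+ and 1.57 ± 0.315 CPM in R26 CD44- cells. In R26 animals Sdc3 rose in CD44+ cells by a log2 change of 2.45 ± 0.16 (edgeR adjusted p = 2.58e-11), in 4 of 4 animals, by 1.83 to 2.71. The difference in OG animals was 2.45 ± 0.11, with 2.26 to 2.62 in single animals, and the difference between prefixes was 2.14 ± 0.11 in CD44+ cells and 2.14 ± 0.15 in CD44- cells. Gm12970 and Gm26716 overlap Sdc3 on the other strand, and 5.36% of its stretches of 50 bases also occur in Gm26716, so without the strand setting of the counting the reads of these genes cannot be told apart.

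Among heparan sulfate proteoglycans and the enzymes of their chains, more genes rose than fell in CD44+ cells of both prefixes. Of 22 listed genes 21 were tested. In OG CD44+ against OG CD44- cells 14 rose and 2 fell (all genes: 22.3% and 28%), with a median of 0.27 beside -0.06. With animals 5, 6 and 7 summed 8 rose, 0 fell and 13 did not pass (all genes: 14.6% rose and 17.2% fell). In R26 CD44+ against R26 CD44- cells 14 rose and 2 fell (all genes: 21.6% and 15.4%), with a median of 0.44 beside -0.02. Between prefixes 13 rose and 2 fell in CD44+ cells, with a median of 0.68 beside -0.01 (all genes: 34.5% and 34.6%), and 16 rose and 3 fell in CD44- cells, with a median of 0.76 beside 0.12 (all genes: 39.4% and 29.6%). Agrn, the basement membrane proteoglycan agrin, rose to 850 ± 53.8 CPM in OG CD44+ cells, against 595 ± 54.9 CPM in OG CD44- cells (log2 0.59 ± 0.06, edgeR adjusted p = 1.92e-08) and 223 ± 16.5 CPM in R26 CD44+ cells. Sdc1, the main epithelial syndecan, rose to 844 ± 23.8 CPM in OG CD44+ cells, against 594 ± 20.9 CPM in OG CD44- cells (log2 0.54 ± 0.06, edgeR adjusted p = 2.67e-07). In R26 animals Sdc1 fell instead, with 389 ± 43.6 CPM in CD44+ cells and 509 ± 41.5 CPM in CD44- cells (log2 -0.39 ± 0.06, edgeR adjusted p = 3.88e-05). Sdc4 fell in CD44+ cells of R26 animals by 0.35 ± 0.04 (edgeR adjusted p = 1.12e-06), so both ran opposite to Sdc3 there. In OG animals the Sdc4 difference was -0.12 ± 0.04 (edgeR adjusted p = 0.0277), a call that was lost with animals 5, 6 and 7 summed and without animal 3. Hspg2, which encodes perlecan, rose in CD44+ cells of R26 animals by 0.74 ± 0.1 (edgeR adjusted p = 2.90e-05) and stood at 0.22 ± 0.1 in OG animals (edgeR adjusted p = 0.0778).

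Taken as a sum, fibroblast markers were highest in OG CD44+ and lowest in R26 CD44- cells, as Sdc3 was. All 7 had counts in every group, and their sum was 1580 to 2810 CPM in OG CD44+ and 709 to 769 CPM in OG CD44- libraries, against 684 to 1470 CPM in R26 CD44+ and 96.9 to 127 CPM in R26 CD44- libraries. OG animal 3 had a fibroblast sum of 2810 CPM in its CD44+ library, against 1580 to 1670 CPM in the other 3, at a Sdc3 level of 40.6 CPM, against 33.7 to 40.3 CPM. Single markers differed: in CD44+ cells Dcn and Lum averaged 38.3 and 4.13 CPM in OG animals, against 80.6 and 7.65 CPM in R26 animals. Pdgfrb was at 37.3 CPM in OG CD44+ and 36.9 CPM in R26 CD44+ cells. The other markers, Col1a1, Col1a2, Col3a1 and Pdgfra, were higher in OG CD44+ than in R26 CD44+ cells. The part of fibroblasts in the Sdc3 levels was not tested.

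Slc7a2, the arginine transporter, did not gain in OG animals; it was low in their CD44- cells (gene 11988, chromosome 8, 40862341 to 40922070, plus strand). OG CD44+ libraries of animals 3, 5, 6 and 7 held 38.3, 31.7, 29.7 and 34.5 CPM, and OG CD44- libraries 8.88, 12, 11.9 and 10 CPM. R26 CD44+ libraries of animals 1, 2, 7 and 8 held 26.7, 42.2, 24.5 and 38.4 CPM, and R26 CD44- libraries 28.0, 38.7, 23.9 and 39.4 CPM. The OG CD44- group stood below all others, and the other 3 groups overlapped. Means were 35.2 ± 4.45 CPM in OG CD44+ and 10.1 ± 1.72 CPM in OG CD44- cells, against 32.9 ± 8.67 CPM in R26 CD44+ and 32.5 ± 7.76 CPM in R26 CD44- cells. The log2 difference was 0.04 ± 0.19 for OG CD44+ against R26 CD44+ cells and -1.6 ± 0.21 for OG CD44- against R26 CD44- cells. Between sorts it was 1.65 ± 0.21 in OG animals, with 1.32 to 2.11 in single animals. In R26 animals it was 0.01 ± 0.19 (edgeR adjusted p = 0.97), higher in 2 animals and lower in 2, from -0.07 to 0.12. Gm26584 overlaps Slc7a2 on the other strand, and 6.42% of its stretches of 50 bases occur in other genes.

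Genes of arginine transport and use did not move as a block. Of 27 listed genes 21 were tested; 6 rose and 9 fell in OG CD44+ against OG CD44- cells, with a median of -0.18 beside -0.06 (all genes: 22.3% and 28%). In R26 CD44+ against R26 CD44- cells 6 rose and 6 fell, with a median of 0.09 beside -0.02 (all genes: 21.6% and 15.4%). Between prefixes 11 rose and 7 fell in CD44+ cells, with a median of 0.29 beside -0.01 (all genes: 34.5% and 34.6%), and 10 rose and 7 fell in CD44- cells, with a median of 0.09 beside 0.12 (all genes: 39.4% and 29.6%). Slc3a2, the heavy chain shared by several amino acid transporters, fell to 384 ± 25.5 CPM in OG CD44+ cells, against 627 ± 24.2 CPM in OG CD44- cells (log2 -0.69 ± 0.04, edgeR adjusted p = 1.12e-11). Slc7a5, a light chain that pairs with it to carry large neutral amino acids, fell to 57.5 ± 7.56 CPM in OG CD44+ cells, against 103 ± 4.09 CPM in OG CD44- cells (log2 -0.79 ± 0.1, edgeR adjusted p = 3.97e-06). Oat, the mitochondrial ornithine aminotransferase, fell in CD44+ cells of OG animals too, by 0.66 ± 0.05 (edgeR adjusted p = 8.48e-11). Sat1, which acetylates polyamines, rose to 95.1 ± 0.963 CPM in OG CD44+ cells, against 53.2 ± 2.28 CPM in OG CD44- cells (log2 0.82 ± 0.08, edgeR adjusted p = 5.88e-08). Like Slc7a2, it was lower in OG CD44- than in R26 CD44- cells, where it averaged 140 ± 13.2 CPM (log2 -1.38 ± 0.08, edgeR adjusted p = 2.56e-12).

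Rgs16, the regulator of G protein signalling, had a pattern near that of Slc7a2 (gene 19734, chromosome 1, 153740353 to 153745468, plus strand). OG CD44+ libraries of animals 3, 5, 6 and 7 held 35.0, 26.1, 23.8 and 24.7 CPM, and OG CD44- libraries 10.6, 7.94, 7.04 and 7.87 CPM. R26 CD44+ libraries of animals 1, 2, 7 and 8 held 26.3, 14.6, 32.5 and 14.9 CPM, and R26 CD44- libraries 24.9, 14.2, 25.1 and 15.1 CPM. R26 animals 1 and 7 were high and animals 2 and 8 low in both sorts, the reverse of Slc7a2, and OG animal 3 was the highest of the OG animals in both sorts. Means were 29.9 ± 7.19 CPM in OG CD44+ and 9.08 ± 2.08 CPM in OG CD44- cells, against 22.1 ± 8.83 CPM in R26 CD44+ and 19.8 ± 5.97 CPM in R26 CD44- cells, with only OG CD44- standing apart. The log2 difference between sorts was 1.71 ± 0.29 in OG animals, with 1.65 to 1.76 in single animals. In R26 animals it was 0.17 ± 0.28 (edgeR adjusted p = 0.68), with 3 animals higher and 1 lower, from -0.02 to 0.37. Between prefixes it was 0.3 ± 0.27 in CD44+ cells and -1.25 ± 0.29 in CD44- cells. Gm28513 lies on the other strand of Rgs16 and holds 8.34% of its stretches of 50 bases.

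The other regulators of G protein signalling and their partners moved in both directions. Of 27 listed genes, RGS proteins and G alpha subunits, 20 were tested; 10 rose and 6 fell in OG CD44+ against OG CD44- cells, with a median of 0.3 beside -0.06 (all genes: 22.3% and 28%). In R26 CD44+ against R26 CD44- cells 10 rose and 3 fell, with a median of 0.22 beside -0.02 (all genes: 21.6% and 15.4%). Between prefixes 8 rose and 6 fell in CD44+ cells, with a median of 0.1 beside -0.01 (all genes: 34.5% and 34.6%), and 12 rose and 3 fell in CD44- cells, with a median of 0.26 beside 0.12 (all genes: 39.4% and 29.6%). Larger changes stood among less abundant RGS genes, in both directions. Rgs4 averaged 73.7, 28.4, 4.95 and 1.02 CPM in OG CD44+, OG CD44-, R26 CD44+ and R26 CD44- cells. Rgs11 averaged 3.09, 5.14, 21.0 and 23.4 CPM in the same groups. The 4 most abundant genes of the list are G alpha subunits, and their changes between the OG sorts were small. Gnai2, which couples chemokine receptors, rose to 290 ± 3.1 CPM in OG CD44+ cells, against 212 ± 4.42 CPM in OG CD44- cells (log2 0.47 ± 0.04, edgeR adjusted p = 4.13e-09). Gnai3, Gnaq and Gna13 fell in OG CD44+ against OG CD44- cells, by 0.19 ± 0.05 (edgeR adjusted p = 0.00115), 0.24 ± 0.05 (edgeR adjusted p = 1.29e-04) and 0.39 ± 0.04 (edgeR adjusted p = 1.24e-07).

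Lymphocyte and plasma cell markers were higher in the CD44+ libraries of both prefixes. Their sum was 1400 to 3970 CPM in OG CD44+ and 72.4 to 141 CPM in OG CD44- libraries, against 1570 to 3800 CPM in R26 CD44+ and 8.98 to 25.7 CPM in R26 CD44- libraries. The R26 sorts did not overlap in this sum, while their Slc7a2 and Rgs16 levels did. The part of such cells in the Slc7a2 and Rgs16 levels was not tested. Of the 8 markers, Nkg7 was at 0 in OG CD44+ libraries and Cd3g at 0 in R26 CD44- libraries. Ptprc, which encodes the CD45 used to remove leukocytes, averaged 6.31 ± 3.29 CPM in OG CD44+ and 1.25 ± 0.113 CPM in OG CD44- cells, and 7.94 ± 5.06 CPM in R26 CD44+ and 0.164 ± 0.0279 CPM in R26 CD44- cells.

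Sprr1a, the cornified envelope precursor, was the only one of the 7 to be lower in OG CD44+ than in OG CD44- cells (gene 20753, chromosome 3, 92483954 to 92485881, minus strand). OG CD44+ libraries of animals 3, 5, 6 and 7 held 51.5, 72.6, 76.5 and 103 CPM, and OG CD44- libraries 193, 177, 244 and 231 CPM. R26 CD44+ libraries of animals 1, 2, 7 and 8 held 7.21, 4.99, 7.45 and 6.78 CPM, and R26 CD44- libraries 3.3, 2.92, 4.15 and 3.94 CPM. None of the 4 groups overlapped another, and the order was OG CD44-, OG CD44+, R26 CD44+ and R26 CD44- from high to low. Means were 67.8 ± 23.0 CPM in OG CD44+ and 205 ± 17.0 CPM in OG CD44- cells, against 6.61 ± 1.11 CPM in R26 CD44+ and 3.57 ± 0.569 CPM in R26 CD44- cells. The log2 difference between prefixes was 3.51 ± 0.23 in CD44+ cells and 5.87 ± 0.24 in CD44- cells. Between sorts it was -1.48 ± 0.17 in OG animals, lower in 4 of 4, with -1.91 to -1.16 in single animals. In R26 animals CD44+ cells were higher in 4 of 4 animals, by 0.78 to 1.13, and the log2 difference of 0.88 ± 0.34 narrowly missed the threshold (edgeR adjusted p = 0.0573); with the animal as a block it was 0.88 and passed (edgeR adjusted p = 0.0446), and with OG animals 5, 6 and 7 summed it also passed (edgeR adjusted p = 0.0162). The promoter printed above with 2 AP-1 matches is that of this gene.

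Other genes of the cornified envelope were mostly too low to test, and those tested did not share the fall in OG CD44+ cells. Of 31 listed genes 13 were tested; 5 rose and 0 fell in OG CD44+ against OG CD44- cells (all genes: 22.3% and 28%; 3 and 0 with animals 5, 6 and 7 summed, where 14.6% of all genes rose and 17.2% fell), with a median of 0.16 beside -0.06. In R26 CD44+ against R26 CD44- cells 3 rose and 2 fell, with a median of 0.16 beside -0.02 (all genes: 21.6% and 15.4%). Between prefixes 9 rose and 0 fell in CD44+ cells, with a median of 1.24 beside -0.01 (all genes: 34.5% and 34.6%), and 9 rose and 4 fell in CD44- cells, with a median of 1.36 beside 0.12 (all genes: 39.4% and 29.6%). S100a14, a calcium-binding protein of stratified epithelium, rose to 89.8 ± 2.37 CPM in OG CD44+ cells, against 6.2 ± 1.32 CPM in R26 CD44+ cells (log2 3.85 ± 0.1, edgeR adjusted p = 2.11e-20). In OG animals S100a14 was higher in CD44+ than in CD44- cells (log2 0.57 ± 0.07, edgeR adjusted p = 4.76e-07), opposite to Sprr1a. Tgm1, the transglutaminase that cross-links the envelope, rose to 79.1 ± 1.15 CPM in OG CD44+ cells, against 31.2 ± 3.48 CPM in R26 CD44+ cells (log2 1.35 ± 0.07, edgeR adjusted p = 4.98e-15). S100a16 rose by 1.24 ± 0.08 in the same comparison (edgeR adjusted p = 6.84e-13), while Ppl, which encodes periplakin, stood at -0.01 ± 0.07 (edgeR adjusted p = 0.868). Reads of Sprr2a1, Sprr2a2 and Sprr2a3, near-identical copies on the list, may be split between them by the counting.

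Basal and squamous markers stayed low where Sprr1a was highest. Their sum was 2.16 to 2.88 CPM in OG CD44+ and 0.752 to 1.11 CPM in OG CD44- libraries, against 0.831 to 82.6 CPM in R26 CD44+ and 0.916 to 2.49 CPM in R26 CD44- libraries. The 82.6 CPM belong to R26 animal 1, whose Sprr1a level of 7.21 CPM lay inside the range of its group. Krt6a and Ngfr had 1 to 3 counts in OG CD44- libraries. Markers of the transitional alveolar state, such as Krt8 and Cldn4, were high in both OG groups, with sums of 4380 to 4580 CPM in OG CD44+ and 3230 to 3240 CPM in OG CD44- libraries, against 854 to 1060 CPM in R26 CD44+ and 683 to 751 CPM in R26 CD44- libraries. Between the OG sorts this sum and Sprr1a ran in opposite directions. Its markers Lgals3 (605 CPM in OG CD44+ and 652 CPM in OG CD44- cells) and Areg (151 and 156 CPM) ran the same way as Sprr1a. All other markers of this list were higher in OG CD44+ cells. The part of cells of these kinds in the Sprr1a levels was not tested.

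The rule of choice does not name the difference between the sorts of R26 animals, so the genes are tested there. In the main fit, which does not pair the sorts of 1 animal, 3 of the 7 genes rose in CD44+ cells (Anxa8, Sdc3 and Cd177). In that fit 0 fell, and 4 did not pass (Ctse, Slc7a2, Rgs16 and Sprr1a). It called 37.1% of all 15516 genes, 21.6% higher and 15.4% lower. With the animal as a block 42.5% of all genes were called, Sprr1a passed (edgeR adjusted p = 0.0446), and so did Ctse, on few counts. Sprr1a was higher in 4 of 4 R26 animals and its R26 sorts did not overlap, as for 17.2% of all genes. The split of higher and lower genes depends on scaling: 3357 genes rose and 2393 fell in the main fit, against 3174 and 3435 with DESeq2 size factors and 2979 and 4824 with TMM against another library, for which the median over all genes was -0.12 in place of -0.02. The log2 changes of the 3 genes that rose in the main fit, 1.8 to 2.45, were far larger than that shift. Leaving out any 1 library kept all 3 past the threshold. In the OG animals 6 of the 7 genes were higher in CD44+ cells without overlap and 1 was lower, where 22.6% of all genes were higher and 28.4% lower without overlap, and edgeR called 50.4% of genes. Between prefixes 5 of the 7 were higher in CD44+ cells without overlap (29.3% of all genes; 69.1% called), and 5 were higher and 2 lower in CD44- cells (38.6% and 29% of all genes; 69% called). These last counts describe the choice.

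**Figure D3:**
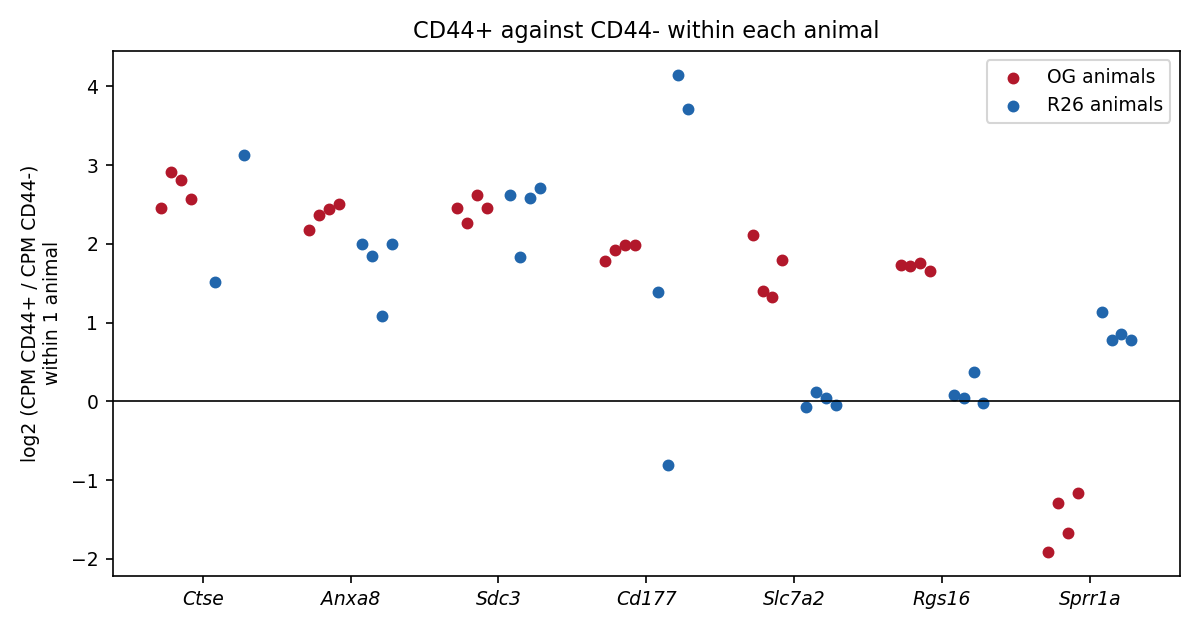
Log2 ratio of CPM in CD44+ over CD44- cells within each animal (vertical axis) for the 7 genes, with OG animals left of R26 animals; each point is 1 animal, and for Ctse only the 2 R26 animals with counts in both sorts can be drawn. Sprr1a lies between -1.91 and -1.16 in OG animals and between 0.78 and 1.13 in R26 animals, Sdc3 is at 1.83 to 2.71 in both, and Slc7a2 and Rgs16 are near 0 in R26 animals.

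**Figure D4:**
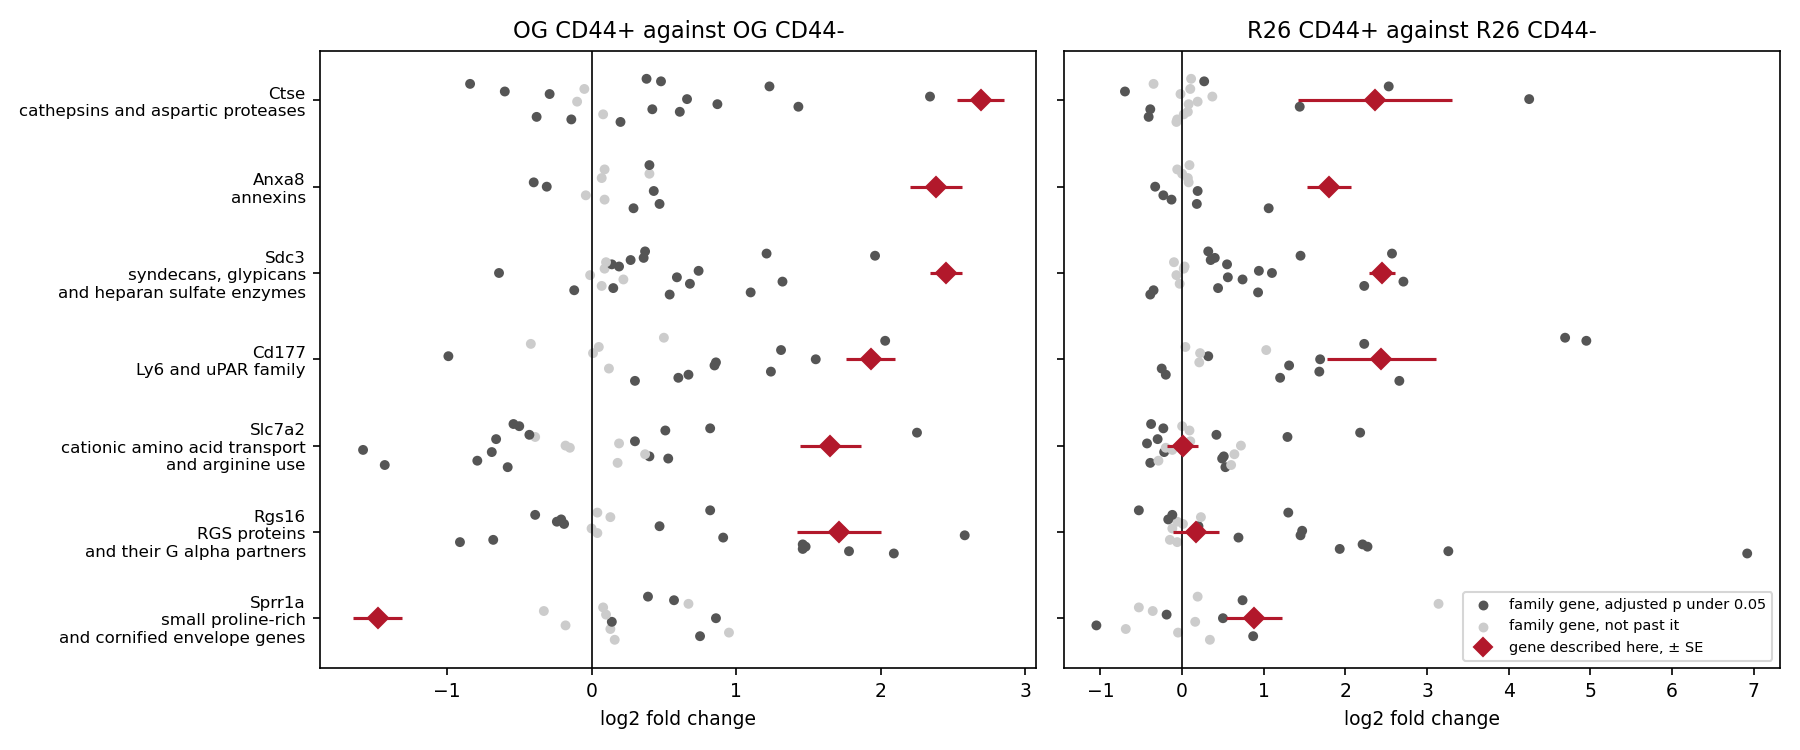
Log2 fold change (horizontal axes) of each of the 7 genes (red diamonds, ± SE) and of the tested genes of its list (dots, dark where the edgeR adjusted p was under 0.05), for CD44+ against CD44- cells in OG animals on the left and R26 animals on the right. Sprr1a, at -1.48, lies below every other tested gene of its list in OG animals.

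The likeness between patterns was measured as the root mean square difference of centred log2 CPM over the 16 libraries, among 13558 named genes. Among the 7 genes the closest pair was Anxa8 and Sdc3 (0.47), followed by Slc7a2 and Rgs16 (0.6) and by Ctse and Cd177 (1.13). The genes nearest to Anxa8 were Cfap54 (0.23), Cdhr4 (0.25) and Dnah9 (0.28), of which Dnah9 encodes an axonemal dynein heavy chain. Nearest to Sdc3 were Fblim1 (0.29), Ccn2 (0.3) and Ltbp2 (0.33). Slc7a2 was closest to Cldn23 (0.27), Tgfbi (0.29) and Bcl2a1d (0.33), and Rgs16 to Tnfaip3 (0.31), Lratd1 (0.34) and Igsf9 (0.35). The genes with the widest range had more distant neighbours. For Ctse these were Kcnn3 (0.66), Prss22 (0.72) and Spp1 (0.78), where Ctse itself varied with an SD of 3.35 on the log2 scale. Those given for Cd177 are Cldn4 (0.84) and Ereg (0.91), at an SD of 3.56. Sprr1a was closest to Srxn1 (0.4), Mthfd2 (0.43) and Sdcbp2 (0.55).

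Nearness over the 16 libraries does not fix the order of the group means. Tgfbi averaged 61.3 CPM in OG CD44+ and 26.7 CPM in OG CD44- cells, against 58.5 CPM in R26 CD44+ and 71.3 CPM in R26 CD44- cells, so it was highest in R26 CD44- cells, where Slc7a2 was not. Ltbp2 averaged 230 CPM in OG CD44+ and 53.4 CPM in OG CD44- cells, against 43.3 CPM in R26 CD44+ and 7.35 CPM in R26 CD44- cells, with its middle groups in the reverse order of Sdc3. Dnah9 averaged 74.9 CPM in OG CD44+ and 19.0 CPM in OG CD44- cells, against 15.4 CPM in R26 CD44+ and 5.21 CPM in R26 CD44- cells. Cldn4, a tight junction protein, averaged 824, 346, 20.5 and 2.64 CPM in these groups. Tnfaip3, which encodes the inflammation inhibitor A20, averaged 145, 42.7, 115 and 66.0 CPM, and is lowest in OG CD44- cells like Rgs16. Srxn1, which encodes sulfiredoxin, averaged 401 CPM in OG CD44+ and 694 CPM in OG CD44- cells, against 36.1 CPM in R26 CD44+ and 20.1 CPM in R26 CD44- cells. Mthfd2, a mitochondrial folate enzyme, averaged 27.9, 57.8, 3.27 and 1.44 CPM, so it too was highest in OG CD44- cells.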

How the data were processed

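The deposited table holds raw counts per gene, whole numbers for 27179 Entrez gene identifiers in 16 libraries. Alignment used Bowtie2 and build mm10, per the submitters' processing notes; per the labels' protocols, libraries were stranded total RNA with ribosomal RNA removed. The counter, the annotation and the strand setting are not given in the sources used here. Symbols were matched for 25275 identifiers (93.0%); the identifier with no symbol that holds most counts took 7.32% of them and was kept.

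All 16 libraries were fitted with 1 mean per group in edgeR 4.0.16 (R 4.3.3; filterByExpr, TMM, robust quasi-likelihood F test), and p-values were adjusted by Benjamini-Hochberg over the 15516 genes tested, with a threshold of 0.05. SE is the log2 fold change divided by the square root of F. CPM uses TMM-scaled totals of the genes tested. The script was tested on simulated data. DESeq2 1.42.0, other filters, another scaling reference, fewer libraries and a replicate block were alternatives; summing OG animals 5, 6 and 7 was added after seeing the data.

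The 7 genes and all lists were chosen with earlier results of these data known. The rule for the 7 genes does not name a difference between the R26 sorts, so the genes are tested there alone. Whether that difference played a part in the choice is not known. Comparisons that share libraries are not independent of each other. Both sorts of an animal carry its number in the column names: deviations from the group means correlated between the sorts of one animal by 0.23 to 0.47 in R26 animals and by 0.01 to 0.27 in OG animals (7467 genes). List genes named with values are the 4 most abundant tested ones of each list; neighbours are the 3 nearest genes, of which 1 is not reported here. Genes of the marker lists, promoter patterns and further examples were chosen with values known. The part of the naming rule on protein identity was not used here. Coordinates are from GENCODE vM21 (GRCm38) and promoters from RefSeq (GRCm38.p6).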

Additional observations from a re-analysis of the deposited data

Results flagged for a closer look

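Over 84 groups of 4 libraries (the 7 genes and the 14 marker lists in 4 groups each), 11 had 1 library far from the other 3 by Dixon's criterion; chance flags about 1 in 20. Cd177 was lowest in the OG CD44+ library of animal 3, at 129 CPM. In the same library the ciliated sum was lowest at 184 CPM, and the lymphocyte and plasma cell, fibroblast and endothelial sums were highest at 3970, 2810 and 36.4 CPM. In the OG CD44- library of animal 3 the AT1 sum (4200 CPM) and the lymphocyte and plasma cell sum (141 CPM) were highest and the fibroblast sum (709 CPM) was lowest. Beside these flags of OG animal 3 stands the close likeness of animals 5, 6 and 7 described above, which leaves a small range among the other 3 libraries. The transitional alveolar sum was highest in the OG CD44- library of animal 7, at 3240 CPM against 3230 CPM in the others. In R26 CD44+ libraries the AT2 sum was highest in animal 2 (129000 CPM) and the basal and squamous sum in animal 1 (82.6 CPM).

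Sprr1a ran in opposite directions in the animals of the 2 prefixes: CD44+ against CD44- cells differed by -1.48 on the log2 scale in OG animals, lower in 4 of 4, and by 0.88 in R26 animals, higher in 4 of 4. The difference between these differences was not tested, since its OG part was used in the choice of the gene.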

How the results depend on the processing

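No direction of a called result reversed. The number of genes lower in R26 CD44+ than in R26 CD44- cells, 2393, was the least stable count: 1353 with only the 8 R26 libraries, 4824 with TMM against OG animal 7 CD44-, and 2307 to 4429 leaving out 1 library, where leaving out any R26 library other than animal 1 CD44+ gave over 1.5 times as many. Genes lower in OG CD44+ than in OG CD44- cells fell to 2770, against 4351, with OG animals 5, 6 and 7 summed. Of the other counts over all genes each stayed within 1.5 times. The counts of the lists were less stable: under alternatives 1306 stayed within 1.5 times and 66 did not. In the RGS list the genes lower in R26 CD44+ than in R26 CD44- cells went from 3 to 1 with OG animals 5, 6 and 7 summed. The split of calls in OG CD44- against R26 CD44- cells, 6113 higher and 4592 lower, became 5282 and 5290 with TMM against OG animal 7 CD44-, and the median of all genes 0.02 in place of 0.12.

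Anxa8 (1.46 to 1.98), Sdc3 (2.29 to 2.5) and Cd177 (2.07 to 3.05) in R26 animals stayed past the threshold under all 25 alternatives. Slc7a2 (-0.2 to 0.06) and Rgs16 (-0.16 to 0.24) stayed short of it, with either sign. Ctse in R26 animals passed with the replicate block (2.4, edgeR adjusted p = 0.00664), DESeq2 size factors (2.32, edgeR adjusted p = 0.048), the DESeq2 Wald test (2.5, adjusted p = 0.0201), TMM against OG animal 7 CD44- (2.27, edgeR adjusted p = 0.0456) and without both libraries of OG animal 3 (2.36, edgeR adjusted p = 0.0236). Leaving out 1 library gave 1.85 to 3.28 (edgeR adjusted p 0.00947 to 0.176). With the 8 R26 libraries alone Ctse fell below the filter on low counts and had no test. Sprr1a passed with the block (0.88, edgeR adjusted p = 0.0446), the DESeq2 Wald test (0.84, adjusted p = 0.00138), the 8 R26 libraries alone (0.91, edgeR adjusted p = 0.00239), without both libraries of OG animal 3 (0.88, edgeR adjusted p = 0.0131) and with OG animals 5, 6 and 7 summed (0.88, edgeR adjusted p = 0.0162). Leaving out 1 library gave 0.73 to 0.9 (edgeR adjusted p 0.0132 to 0.138). The cause of these moves was not tested. The replicate block changed no other call of the 7 genes. Without R26 animal 2 CD44-, which held 2 of the 3 R26 CD44- counts of Ctse, its OG CD44- against R26 CD44- value was 7.78 in place of 6.9; depth limits this gene in R26 cells. Of the other 510 untested fold changes of the 7 genes and their 168 group means under alternatives, none moved by more than the spread between libraries. Without the low-count filter, genes with few counts enter and more genes are tested; with at least 50 counts in 4 libraries, fewer are.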
